A study of Mus musculus with 9 samples.

Results

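The nuclear genes for subunits of the mitochondrial respiratory chain were examined in bulk RNA sequencing of mouse cortex. A gene was taken as a member if its symbol began with Ndufa, Ndufb, Ndufc, Ndufs or Ndufv (complex I), Sdha to Sdhd (complex II), Uqcr (complex III), Cox4 to Cox8 (complex IV) or Atp5 (complex V), if it was neither an Ndufaf or Sdhaf assembly factor nor a symbol containing -ps, and if its mean over all libraries was at least 1 CPM (counts scaled to library size). Of 34714 gene symbols, 88 matched by name and 84 passed the limit, of which 41 belonged to complex I, 4 to complex II, 8 to complex III, 14 to complex IV and 17 to complex V. The 4 that did not pass were Cox7a1, Cox7b2, Cox8b and Cox8c, all of complex IV. All 84 members were among the 18644 genes with enough counts to be tested.

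The samples came from 3 naive mice, from 3 with experimental autoimmune encephalomyelitis (EAE, in which immunity to myelin inflames brain and spinal cord, a model for multiple sclerosis) and from 3 with EAE given Au18(L-NIBC)14, a gold nanocluster carrying ligands of N-isobutyryl-L-cysteine. These groups are called naive, EAE and treated. The naive libraries are titled as controls, and no label gives the EAE or naive mice a vehicle. The sources used here do not give strain, sex, age, immunisation, dose or collection day. The series title names oligomerisation of ASC, the adaptor protein of inflammasomes, as the target of the compound. Whether a library came from 1 animal is not stated beyond the titles, so p-values measure the spread between these samples.

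The respiratory chain passes electrons from NADH through complex I, or from succinate through complex II, to ubiquinone, then through complex III and cytochrome c to complex IV, which reduces oxygen. Complexes I, III and IV pump protons across the inner mitochondrial membrane, and complex V, the ATP synthase, uses the returning protons to make ATP. Most subunits are encoded in the nucleus and imported, while the most hydrophobic cores of complexes I, III, IV and V are encoded by mitochondrial DNA. Neurons depend heavily on this pathway, and the transcription factors NRF1, GABPA (also called NRF2) and YY1 are known to bind promoters of many nuclear subunit genes. None of the 13 mitochondrially encoded subunit genes was found under its mt- symbol among the genes tested, so the pathway was followed on its nuclear side only.

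Promoter sequence was not used to choose the members. Promoters from RefSeq (GRCm38.p6, 250 bases before to 50 bases after the start of a gene) were at hand for 68 of the 84 members, and both strands were searched. The NRF1 motif, whose forms are seen in capitals in the sequences below, was present in 17 of 68 members (25%). The shares were 8.91% of 14637 tested genes and 5.19% of all 27025 genes with a promoter sequence. The GABPA motif CCGGAAG was also present in 17 of 68 (25%), against 15.6% of tested genes and 9.93% of all genes with a promoter sequence. A strict form of the YY1 motif was present in 4 of 68 (5.88%), all in complex I. It was in 1.35% of tested genes and 0.755% of all genes with a promoter sequence. At least 1 of these motifs was in 33 of 68 (48.5%), against 23.5% of tested genes, 5 members had more than 1 kind, and no matches of different motifs overlapped. NRF1 matches were spread over the complexes, with 7 of 35 genes in complex I, 2 of 3 in II, 1 of 5 in III, 1 of 10 in IV and 6 of 15 in V. A match describes letters and is no evidence of binding.

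Sdha, Cox6a1 and Atp5g2 are described below and carried an NRF1 match wholly upstream of the start, and the stretch from 20 bases before the first match to the base before the start is printed here so that the spacing of the matches can be seen. All read 5′ to 3′ on the strand of the gene (the minus strand), with the NRF1 matches in capitals. Sdha, the flavoprotein that oxidises succinate, lies at chr13:74322255-74350240, and its stretch at chr13:74350241-74350358 held 3 matches that began 98, 55 and 10 bases before the start. Cox6a1, the widely expressed isoform of an accessory subunit of complex IV, lies at chr5:115345652-115348958, and its stretch at chr5:115348959-115349140 held 2, at 162 and 117 bases. Atp5g2, 1 of 3 genes for the c subunit of the ATP synthase rotor, had 1 match 42 bases before the start in chr15:102671048-102671109.
Sdha: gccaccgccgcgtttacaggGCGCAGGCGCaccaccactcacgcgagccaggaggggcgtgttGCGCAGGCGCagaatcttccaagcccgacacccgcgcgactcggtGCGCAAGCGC
Cox6a1: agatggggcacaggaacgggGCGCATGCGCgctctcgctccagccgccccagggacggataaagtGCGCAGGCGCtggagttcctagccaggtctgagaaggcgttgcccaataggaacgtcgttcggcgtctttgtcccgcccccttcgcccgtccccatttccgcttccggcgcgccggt
Atp5g2: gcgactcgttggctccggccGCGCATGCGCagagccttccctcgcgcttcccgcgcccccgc

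Total counts ranged from 26972179 (naive replicate 2) to 45243553 (naive replicate 1). Members took between 0.783% of the counts (treated replicate 3) and 0.861% (treated replicate 2), and 95% Wilson intervals extended by at most 0.00339 percentage points, which covers counting error only. Of the cell type markers, those of neurons summed to between 9162 and 10442 CPM over all libraries, and those of muscle, which should be absent, to between 9.61 and 17.1 CPM. Markers of neighbouring tissue varied more, with choroid plexus at 11.3 to 45.1 CPM in naive, 27.6 to 900 in EAE and 7.29 to 18.6 in treated libraries, and striatum at 181 to 1273, 201 to 1131 and 260 to 809 CPM. None of the 10 marker lists held a gene called between groups, and no listed marker was at 0 in every library. The share of all genes called was 0.987% in EAE against naive, 0.22% in treated against EAE and 0% in treated against naive. Lists this short therefore do not show equal cell composition by 0 calls. Median log2 fold changes in EAE against naive were 0.50 in endothelium, 0.45 in microglia, 0.19 in astrocytes, -0.04 in neurons and -0.32 in myelin. In bulk tissue, fewer cells of a type and less RNA per cell cannot be told apart.

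Levels of members were compared per length, as mean CPM per kilobase of transcript over the 9 libraries, for the 81 members with an annotated transcript length. The median member stood at 79.8 CPM per kb, and the complex medians were 60.9 in complex I, 59.6 in II, 89.8 in III, 136 in IV and 134 in V. The highest level was that of Atp5b, the catalytic beta subunit of the ATP synthase, at 510 CPM per kb. It was followed by 3 subunits of complex IV, Cox4i1 at 478, Cox8a at 437 and Cox6a1 at 336 CPM per kb, and then by Ndufa4 at 290 and Atp5a1, the ATP synthase alpha subunit, at 282 CPM per kb. Ndufa4 is named for complex I, where the naming rule placed it, although the protein has since been assigned to complex IV. Without regard to length, complex V held 37.2% of the members' summed CPM, complex I 28.0%, complex IV 19.2%, complex III 8.17% and complex II 7.36%.

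**Figure D1:**
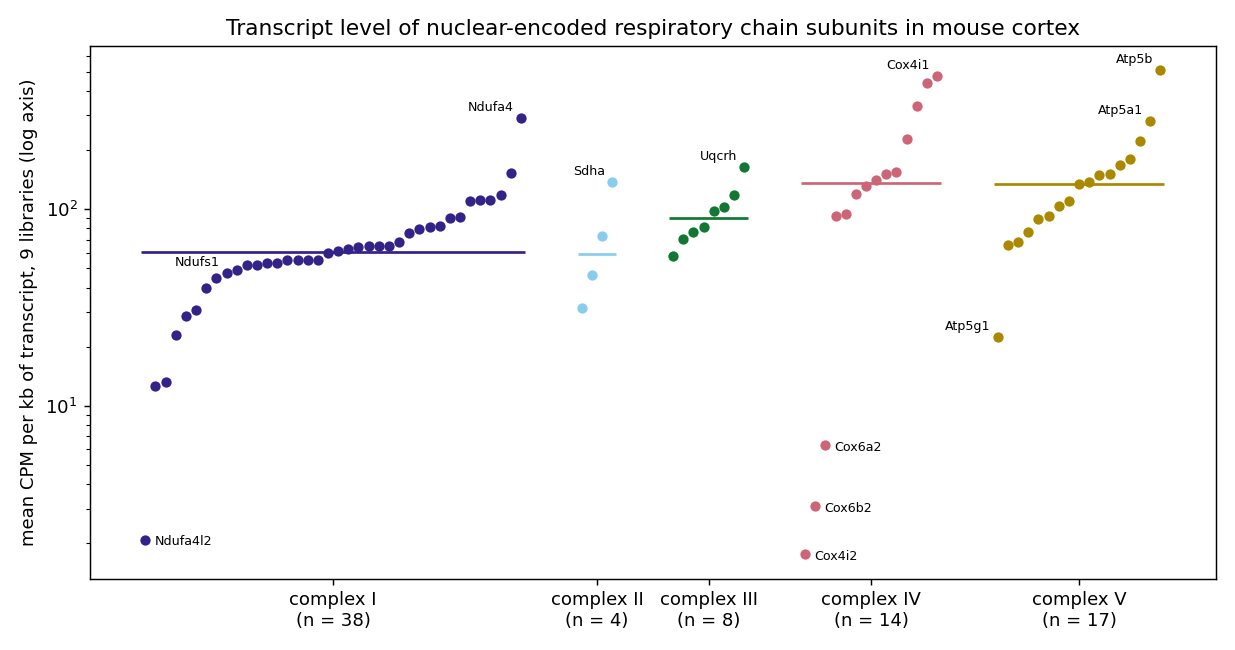
Level of 81 members by complex, as mean CPM per kb of transcript over 9 libraries on a log axis, with each point 1 gene, genes sorted by level within a complex and each horizontal line the median of the complex. Most members lie near the median of 79.8 CPM per kb, and Cox4i2, Ndufa4l2, Cox6b2 and Cox6a2 lie far below it.

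Where a subunit has tissue-specific isoforms, the cortex libraries held mainly 1 of them. Cox4i1, the common isoform of subunit IV, was 272 times as high per kb as Cox4i2, the isoform known from lung and from oxygen-regulated expression, with ratios of 173 to 334 in single libraries. Ndufa4 exceeded Ndufa4l2, a paralogue induced by hypoxia, 139 times (106 to 207). Cox6a1 exceeded the heart and muscle isoform Cox6a2 53.4 times (35.9 to 74.9), and Cox6b1 exceeded the testis isoform Cox6b2 50.3 times (35.7 to 75.0). All 9 libraries thus showed the same dominant isoform in each of these pairs.

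The limit of 1 CPM ran through these minor isoforms. Cox4i2 (mean 1.28 CPM) and Cox6b2 (1.34 CPM) were just inside it, and Cox7a1, the muscle isoform of subunit VIIa, was just outside at 0.593 CPM. Cox8b and Cox7b2 were at 0.122 and 0.121 CPM, and Cox8c had no count in any library. Cox7a2l, which is related to Cox7a2 and helps join complexes III and IV into supercomplexes, was at 0.795 times the level of Cox7a2 per kb (0.699 to 0.910). The c subunit is made from 3 genes that encode the same mature protein, and Atp5g3 exceeded Atp5g2 3.28 times (2.99 to 3.51) and Atp5g1 9.94 times (8.68 to 11) per kb. The last ratio depends on the length taken for Atp5g1, a median of 2675.5 bases over its annotated transcripts, since in CPM the means were 160 for Atp5g3 and 59.9 for Atp5g1.

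The spread of member transcripts between libraries was measured by the coefficient of variation over the 9 libraries. It was computed for members only, had a median of 6.88% and was under 10% in 71 of 84. The most even was Sdhb, the iron-sulfur subunit of complex II, with 84.6, 84.7 and 84.7 CPM in naive, 82.6, 79.7 and 80.9 in EAE and 84.7, 86.6 and 80.4 in treated libraries (coefficient of variation 2.88%). The least even at 10 CPM or more was Ndufa12, an accessory subunit of complex I (20.1%), followed by Ndufb1 (12.6%). The annotation GENCODE M21 lists Ndufb1 as Ndufb1-ps, a long non-coding RNA, with exons that overlap Cpsf2 on the opposite strand. Ndufa12 stood at 40.0, 38.4 and 27.9 CPM in naive, 38.8, 27.8 and 29.5 in EAE and 27.4, 43.2 and 26.1 in treated libraries. Its values fell into 4 libraries between 38.4 and 43.2 CPM and 5 between 26.1 and 29.5, with each group represented in both. An annotated pseudogene, Gm15920, is 99.5% identical to Ndufa12 over 402 bases, and its part in these values was not tested.

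Many members had their highest value in the same library. Of the 84 members, 40 had their highest value in treated replicate 2 and 0 their lowest there, whereas 9.16% of all tested genes were highest in that library. These 40 were 17 of 41 in complex I, 3 of 4 in II, 5 of 8 in III, 4 of 14 in IV and 11 of 17 in V. EAE replicate 1 held the highest value of a further 16 members (8.71% of all genes). The median member deviated from its own mean over the libraries, on the log2 scale, by 0.03, 0.02 and -0.03 in the naive libraries, 0.05, 0.01 and -0.07 in EAE and -0.05, 0.10 and -0.05 in treated libraries. The 3 groups overlapped, and their outermost values, 0.10 and -0.07, came from treated replicate 2 and EAE replicate 3. The high value of treated replicate 2 was not particular to the members. Median deviations there were 0.10 for citric acid cycle genes and 0.09 for assembly factors, lists that are described below. They were 0.09 for outer membrane and carrier genes, 0.08 for the mitochondrial ribosome, -0.03 for biogenesis regulators and 0.005 for all genes tested. Treated replicate 2 had the second largest total (42809145 counts) and neuronal markers at 10119 CPM, within the range of the other treated libraries (9693 and 10442 CPM), and the part of either in its values was not tested.

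**Figure D2:**
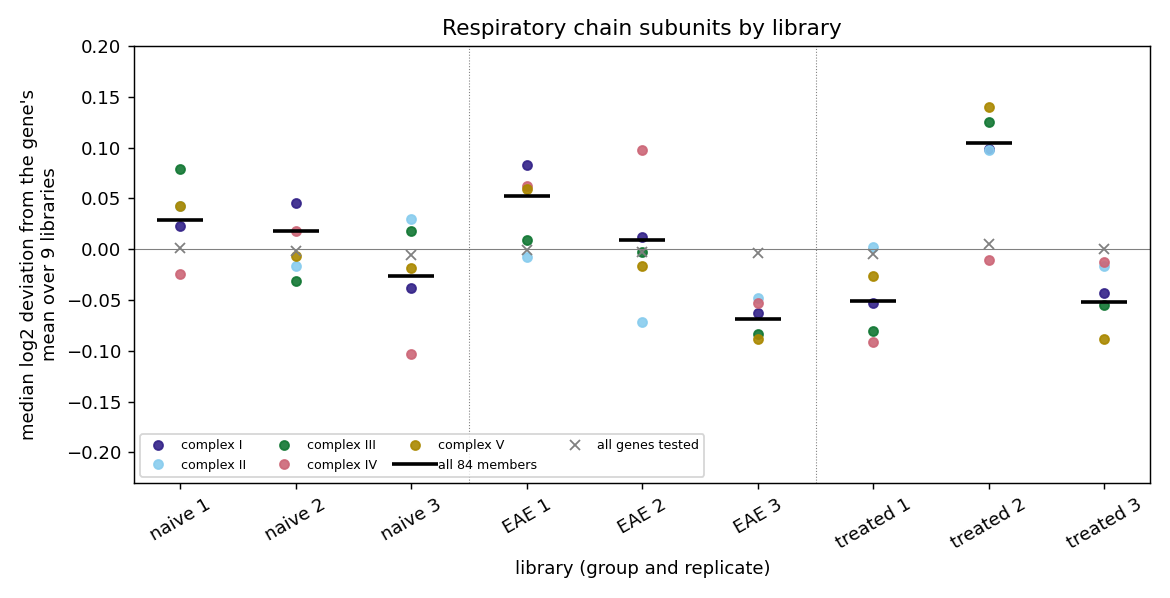
Median log2 deviation of members from each gene's mean over the 9 libraries, by library, for each complex (coloured points), all 84 members (black bars) and all genes tested (grey crosses). Treated replicate 2 is the highest for all members at 0.10 and its 2 fellow treated libraries are both at -0.05, while complex IV does not share the high value of treated replicate 2.

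EAE was compared with naive cortex to ask whether disease changed subunit transcripts. No member passed the test (edgeR quasi-likelihood, adjusted p under 0.05), where 0.987% of all tested genes did, and DESeq2 called 0 members and 1042 of 27618 genes. At an unadjusted p under 0.05, 2 members were higher (9.42% of all genes) and 3 lower (6.97%) in EAE, which together is 5.95% of members against 16.4% of all genes. The median log2 fold change of the members was -0.02, with 33 above 0 and 51 below, and that of all genes was -0.01, with 49% above 0 and 51% below. Without EAE replicate 3 the members' median was 0.0080, with 45 above 0 and 39 below, and without naive replicate 1 there were 41 above and 43 below. The 3 EAE libraries did not overlap the 3 naive ones for 13 members, 5 higher (12.2% of all genes) and 8 lower (11.8%), which together is 15.5% against 24% of all genes. Both shares of members were below those of all genes.

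The core of complex I was described by Ndufs1 and Ndufv1. Ndufs1, the largest iron-sulfur subunit of the electron input arm (chr1:63143592-63176822), stood at 131, 121 and 135 CPM in naive, 119, 115 and 108 in EAE and 134, 137 and 120 in treated libraries. All EAE values were below all others, by a narrow gap. The log2 fold change was -0.18 (SE 0.0750) in EAE against naive and 0.20 (SE 0.0749) in treated against EAE, with edgeR adjusted p of 0.267 and 0.258. Exons of Ndufs1 overlap Eef1b2 and Ino80dos on the opposite strand in GENCODE M21, and since the sources used here do not give the strand setting of the counts, reads of these genes cannot be told apart.

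Ndufa10, an accessory subunit of the membrane arm (chr1:92439486-92473825), was at 110, 114 and 113 CPM in naive, 107, 94.2 and 98.0 in EAE and 109, 121 and 106 in treated libraries. Its EAE libraries were below the naive ones but overlapped the treated ones through EAE replicate 1. The log2 fold changes were -0.17 (SE 0.0743) in EAE against naive and 0.17 in treated against EAE (edgeR adjusted p = 0.289 and 0.323). Ndufv1, which binds NADH and flavin, had the same mean of 141 CPM in naive (SD 4.15, n = 3) and EAE (SD 8.60, n = 3) and 138 in treated libraries. Of the 41 members of complex I, 0 were called in any comparison, and their median log2 fold changes were -0.02 in EAE against naive, -0.01 in treated against EAE and -0.01 in treated against naive.

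Ndufb4c is annotated as a processed pseudogene and is identical to Ndufb4 over 390 bases, so that their counts (5.73 and 27.7 CPM on average) cannot be assigned with certainty. Ndufa4l2 was at 1.94, 2.31 and 2.14 CPM in naive, 1.49, 2.56 and 2.15 in EAE and 1.49, 1.61 and 1.84 in treated libraries. Its treated libraries were all below the naive ones, with a log2 fold change of -0.37 and a 95% interval of -0.90 to 0.15.

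All 4 subunits of complex II had log2 fold changes below 0 in EAE against naive (median -0.06) and above 0 in treated against EAE (median 0.09), and 0 were called. These comparisons share the EAE libraries, so a low set of EAE values gives both signs. Sdhc, which with Sdhd anchors the enzyme in the membrane and binds haem (chr1:171129157-171150640), had 65.3, 64.6 and 68.0 CPM in naive, 59.9, 61.3 and 55.2 in EAE and 58.1, 66.5 and 65.9 in treated libraries. Its EAE values were all below the naive ones, and the log2 fold change was -0.17 with an SE of 0.0725 and an edgeR adjusted p of 0.294. Sdha had 401, 377 and 406 CPM in naive, 396, 361 and 386 in EAE and 420, 428 and 401 in treated libraries. Its treated values were all above the EAE ones, and the log2 fold change was 0.13 with an SE of 0.0671 and an edgeR adjusted p of 0.407. Sdhb was below naive in every EAE library, yet by a log2 fold change of only -0.06 (95% interval -0.19 to 0.06).

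Complex III had 8 members, all with log2 fold changes below 0 in EAE against naive (median -0.06), and 6 of 8 above 0 in treated against EAE (median 0.05). None was called. Uqcrfs1, the Rieske iron-sulfur protein, had 83.9, 77.3 and 80.4 CPM in naive, 76.6, 73.6 and 77.2 in EAE and 79.2, 89.3 and 74.7 in treated libraries, and its naive and EAE values were separated by less than 1 CPM. The core proteins Uqcrc1 and Uqcrc2 had log2 fold changes of -0.03 and -0.06 in EAE and 0.02 and 0.16 in treated against EAE. For Uqcrc2 the values were 157, 133 and 145 CPM in naive, 152, 126 and 138 in EAE and 160, 166 and 137 in treated libraries, so that all groups overlapped. Uqcrq and Uqcrb, small subunits near the ubiquinone sites, had log2 fold changes of -0.09 and -0.05 in EAE.

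Complex IV was the 1 complex with a positive median log2 fold change in EAE against naive, at 0.07 over 14 members (8 above 0), and its median in treated against EAE was -0.08 (5 above 0). Over its 11 members at 10 CPM or more the medians were 0.11 and -0.12. No test of the difference between complexes was made, and 0 members were called. The summed CPM of the complex was 1440 to 1576 in naive, 1563 to 1733 in EAE and 1401 to 1595 in treated libraries, so the ranges overlapped.

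Among members of complex IV at 10 CPM or more, the 5 with the highest log2 fold changes in EAE were Cox6c, Cox6a1, Cox7a2l, Cox8a and Cox4i1. Cox7a2l (chr17:83501917-83514333) had 104, 97.3 and 95.8 CPM in naive, 109, 117 and 117 in EAE and 91.3, 102 and 110 in treated libraries. EAE values were above all naive ones and overlapped the treated ones through treated replicate 3. Its log2 fold change was 0.21 (SE 0.0788) in EAE against naive and -0.18 (SE 0.0788) in treated against EAE (edgeR adjusted p = 0.233 and 0.330), the smallest adjusted p of any member in the first comparison. Gm6969 is identical to it over 201 bases, and the split of reads between them is uncertain.

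Cox6a1 had 181, 188 and 164 CPM in naive, 210, 219 and 196 in EAE and 161, 183 and 226 in treated libraries. The EAE libraries were above the naive ones, and treated replicate 3 was the highest of all 9. The log2 fold change was 0.23 (SE 0.117) in EAE against naive and -0.13 in treated against EAE (edgeR adjusted p = 0.365 and 0.646). Cox6c, a small membrane subunit (chr15:35931976-35938246), had 131, 139 and 114 CPM in naive, 165, 159 and 132 in EAE and 126, 127 and 147 in treated libraries. Its groups overlapped, and the log2 fold change in EAE was 0.25 (SE 0.109, edgeR adjusted p = 0.300), the highest among members at 10 CPM or more. Exons of Cox6c overlap Vps13b, and those of Cox4i1 overlap Emc8, both on the opposite strand.

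Cox4i1, the large regulatory subunit that binds ATP (chr8:120668225-120674209), had 350, 348 and 337 CPM in naive, 371, 412 and 369 in EAE and 314, 364 and 380 in treated libraries. Cox8a, the smallest subunit, had 232, 244 and 216 CPM in naive, 253, 268 and 253 in EAE and 210, 232 and 258 in treated libraries. Both were higher in every EAE library than in every naive one, at log2 fold changes of 0.15 and 0.16 (edgeR adjusted p = 0.411 and 0.392), and both were highest in EAE replicate 2. Summed endothelial markers were at 235, 236 and 235 CPM in naive, 260, 368 and 300 in EAE and 221, 233 and 331 in treated libraries, and summed astrocyte markers at 4968 to 5742, 5081 to 7365 and 4426 to 6244 CPM. Summed microglial markers were at 250 to 306 CPM in naive, 265 to 518 in EAE and 279 to 328 in treated libraries. These 3 sums were highest in EAE replicate 2 too. Summed myelin markers were at 4558 to 6896 CPM in naive, 5022 to 5737 in EAE and 2737 to 8889 in treated libraries, and were highest in treated replicate 3. The part of any of these cells in the levels was not tested.

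Not all of complex IV lay on that side. Cox5a, which faces the matrix (chr9:57517328-57532427), had 102, 90.7 and 84.8 CPM in naive, 90.6, 80.4 and 80.3 in EAE and 88.2, 104 and 91.9 in treated libraries, with log2 fold changes of -0.15 (SE 0.0940) and 0.18 (SE 0.0939; edgeR adjusted p = 0.495 and 0.413). Cox5b, its neighbour on the matrix side, differed by -0.01 and -0.04. Cox6a2, which in brain is known from parvalbumin interneurons, had 3.37, 5.17 and 5.41 CPM in naive, 3.34, 3.91 and 3.47 in EAE and 5.35, 4.01 and 4.48 in treated libraries. All treated values were above all EAE ones, with a log2 fold change of 0.37 (95% interval -0.10 to 0.83). The summed markers of these interneurons were at 427 to 558 CPM in naive, 405 to 487 in EAE and 479 to 538 in treated libraries, and their part was not tested.

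Complex V, which held the largest share of the members' summed CPM without regard to length, had a median log2 fold change of -0.01 in EAE against naive and 0.03 in treated against EAE (12 of 17 above 0). Atp5b (chr10:128083307-128090388) had 1010, 922 and 1009 CPM in naive, 999, 917 and 918 in EAE and 990, 1066 and 967 in treated libraries. Atp5a1 had 746, 674 and 723 CPM in naive, 744, 711 and 705 in EAE and 734, 812 and 682 in treated libraries. For both of these subunits the groups overlapped, and the log2 fold changes in EAE were -0.05 (95% interval -0.22 to 0.11) and 0.01 (-0.17 to 0.19).

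The remaining parts of the ATP synthase were also close. Atp5pb, the b subunit of the peripheral stalk, had 177, 163 and 172 CPM in naive, 168, 155 and 146 in EAE and 173, 188 and 159 in treated libraries, with log2 fold changes of -0.13 and 0.15 (edgeR adjusted p = 0.501 and 0.427), the smallest of its complex in both comparisons. Atp5j, another stalk subunit whose exons overlap Gabpa on the opposite strand, differed by less than 0.01 in EAE and by -0.07 in treated against EAE. Among the c subunit genes, Atp5g1, Atp5g2 and Atp5g3 had log2 fold changes of -0.04, 0.09 and -0.01 in EAE. Atp5l, of the membrane part, has 14 near-identical copies in the annotation, the most of any member.

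**Figure D3:**
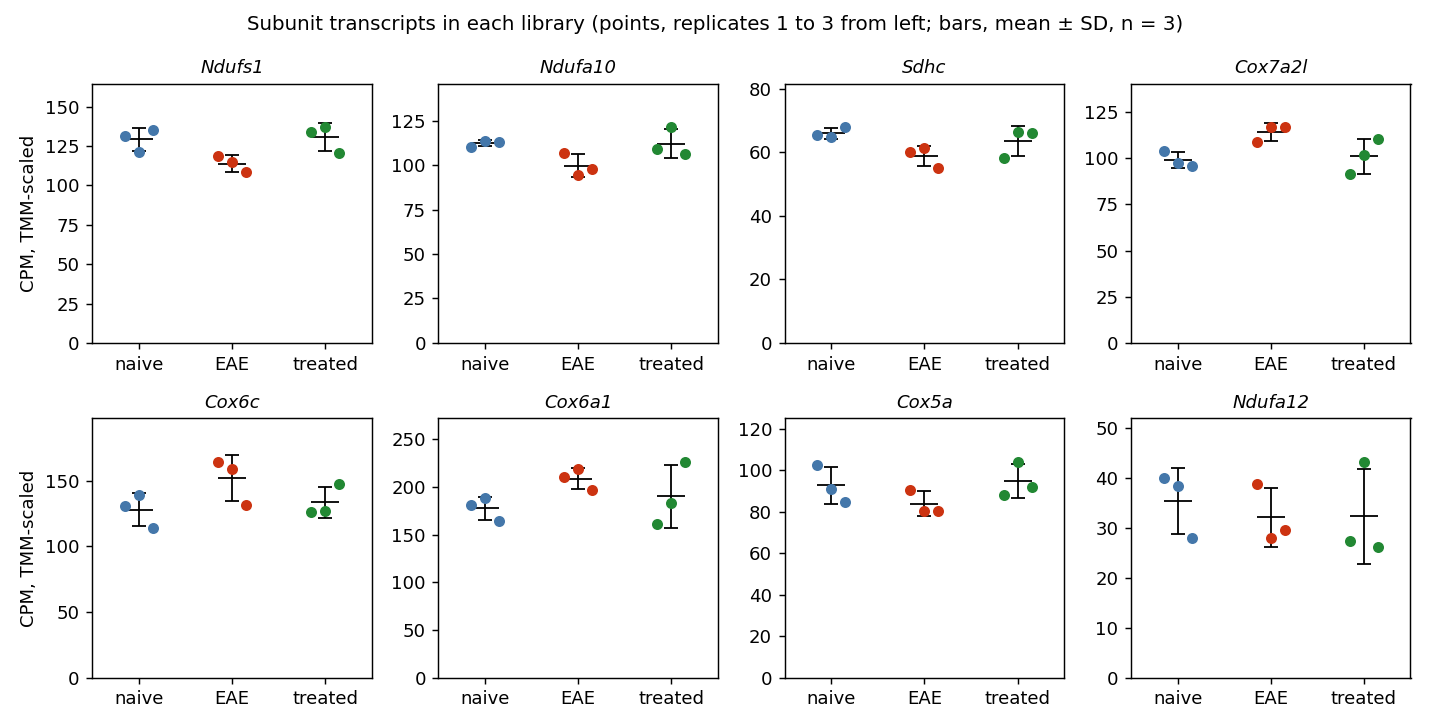
CPM (TMM-scaled) of 8 members in each library, with points for replicates 1 to 3 from left to right in each group and bars for the mean and SD (n = 3), and axes starting at 0. Ndufs1, Ndufa10 and Sdhc are lower and Cox7a2l and Cox6a1 higher in all 3 EAE libraries than in all 3 naive ones, Cox6c and Cox5a overlap, and Ndufa12 falls into a low and a high set within every group.

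Treated cortex was compared with EAE cortex to ask whether the compound changed subunit transcripts. No member was called (edgeR adjusted p under 0.05, 0.22% of all genes), and DESeq2 called 0 members and 688 of 27618 genes. At an unadjusted p under 0.05, 2 members were higher (Ndufs1 and Ndufa10, against 7.43% of all genes) and 1 lower (Cox7a2l, against 7.65%), which together is 3.57% of members against 15.1% of all genes. The median log2 fold change was 0.01, with 44 above 0 and 40 below, and all genes had 50.6% above 0 and 49.4% below. The sign turned on single libraries, since the median was -0.056 with 27 above 0 without treated replicate 2, -0.040 with 33 above 0 without EAE replicate 3 and 0.043 with 52 above 0 without treated replicate 3. Groups did not overlap for 6 members, all higher in treated libraries (Ndufb6, Ndufc2, Ndufs1, Ndufv3, Sdha and Cox6a2). That is 7.14% of members against 19.2% of all genes, of which 9.93% were higher and 9.28% lower.

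Treated cortex was compared with naive cortex to see whether any difference remained in mice that had both EAE and the compound. No gene at all was called by edgeR (0% of 18644), DESeq2 called 3 genes and 0 members, and at an unadjusted p under 0.05 there were 0 members against 1.71% of all genes. The median log2 fold change was 0.01, with 45 above 0 and 39 below, against 53.6% and 46.4% of all genes. Groups did not overlap for 2 members, Ndufa4l2 and Ndufa5, both lower in treated libraries (2.38% against 6.25% of all genes, of which 3.51% were higher and 2.74% lower). Ndufa5, a subunit of the matrix arm, had 49.3, 48.4 and 48.1 CPM in naive and 43.8, 46.0 and 46.9 in treated libraries, but EAE replicate 3 was also low at 44.2 CPM. Without treated replicate 2 the median was -0.07, with 15 above 0 and 69 below.

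**Figure D4:**
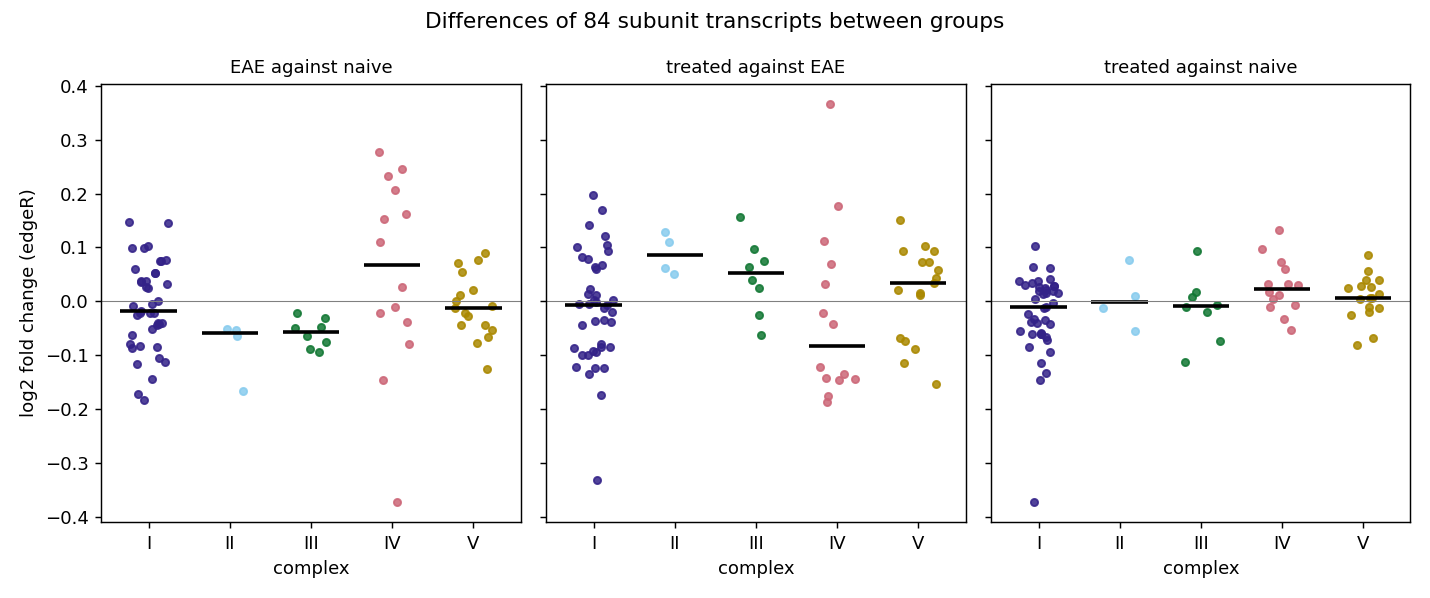
Log2 fold change (edgeR) of each of the 84 members by complex, in EAE against naive, treated against EAE and treated against naive, with black bars for the median of each complex. Most points lie within 0.2 of 0, complex IV has its median at 0.07 in the first panel and -0.08 in the second, and the outermost points are low-count isoforms such as Cox6a2.

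The data set limits on the size of any difference. The standard error of a member's log2 fold change had a median of 0.08, against 0.15 over all genes. In each of the 3 comparisons the 95% interval lay within a 1.5-fold difference in either direction for 80 of 84 members, against 54.0% of all genes in EAE against naive, 54.8% in treated against EAE and 61.0% in treated against naive. The exceptions in EAE against naive were Cox6a2, Ndufa12, Cox4i2 and Cox6b2. Within 1.25-fold lay 57, 57 and 73 of 84 members, against 26%, 25.9% and 36.8% of all genes. A mean of 10 CPM or more was reached by 78 members, and intervals were not compared with those of genes at similar levels.

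Other genes of the pathway were read from lists chosen by function. Cycs, the somatic cytochrome c that carries electrons from complex III to complex IV and takes part in apoptosis, had 96.2, 85 and 90.2 CPM in naive, 78.9, 73.3 and 75.6 in EAE and 90.3, 94.5 and 89.7 in treated libraries. All 3 EAE values were below all 6 others. Its log2 fold change was -0.25 (SE 0.0657) in EAE against naive and 0.27 in treated against EAE, and it was not called (edgeR adjusted p = 0.0978 and 0.128). Cyc1, the cytochrome subunit of complex III that hands electrons to it, had log2 fold changes of -0.02 and 0.06 (edgeR adjusted p = 0.925 and 0.733). Of the 3 tested subunits outside the naming prefixes, 0 were called. Their log2 fold changes ran from -0.28 to -0.02 in EAE against naive and from 0.06 to 0.32 in treated against EAE. EAE lay wholly below naive for 2 of 3 (11.8% of all genes), and treated wholly above EAE for 2 of 3 (9.93%). Among 45 tested assembly factors, 0 were called in any comparison, 33 were below 0 in EAE against naive (median -0.10) and 35 above 0 in treated against EAE (median 0.08). Bcs1l, which inserts the Rieske protein into complex III, had means of 17.4 CPM in naive, 13.7 in EAE and 18.0 in treated libraries, and log2 fold changes of -0.34 and 0.39 (edgeR adjusted p = 0.0775 and 0.0928). Lyrm7, a chaperone of the same protein, had log2 fold changes of -0.50 and 0.40 (edgeR adjusted p = 0.0842 and 0.178). Surf1, an assembly factor of complex IV, lay on the other side in treated against EAE, at -0.22 (edgeR adjusted p = 0.179).

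The feeding pathway and the organelle's own machinery also gave 0 calls, where 0.987% and 0.22% of all genes were called in these 2 comparisons. Of 16 citric acid cycle genes 0 were called, 14 were below 0 in EAE against naive (median -0.11) and 15 above 0 in treated against EAE (median 0.12). EAE lay wholly below naive for 8 of 16 (11.8% of all genes), and treated wholly above EAE for 8 of 16 (9.93%). In either direction that is 50% of the list in each comparison, where members had 15.5% and 7.14%. Fh1, fumarase, had a mean of 61.5 CPM in naive, 53.3 in EAE and 61.4 in treated libraries (edgeR adjusted p = 0.200 and 0.231). Of 78 genes of the mitochondrial ribosome 0 were called and 58 were below 0 in EAE (median -0.07), and of 17 outer membrane and carrier genes 0 were called and 12 were below 0 (median -0.07). Timm44, of the import motor and with the smallest p of that list, lay on the other side, at log2 fold changes of 0.27 in EAE against naive and -0.25 in treated against EAE (edgeR adjusted p = 0.135 and 0.184). The 22 regulators of mitochondrial biogenesis, which include Nrf1, Gabpa and Yy1, had 14 above 0 and 8 below (median 0.04), with 0 called. The EAE libraries serve in both comparisons, and the shifts of these lists were not tested as lists.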

How the data were processed

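Libraries of poly(A) RNA were made from cortex and sequenced on an Illumina HiSeq, per the labels' protocols. Per the series' design text, fastp trimmed the reads, Hisat2 aligned them and bowtie2 served for quantification. FastQC 0.11.8 and mm10 (the assembly GRCm38) come from the submitters' processing notes. For counting, annotation and strand setting are not given in the sources. The authors deposited raw counts per gene symbol, and columns were matched to samples by title. Another 9 columns match no sample used here and were left out. Per library, 3.80 to 4.43 times as many genes had 2 counts as had 1, so 1 count may not equal 1 fragment. No library was a copy of another of its own group (chi-square per degree of freedom 17.3 to 58.2), and libraries of different groups were not compared in this way.

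The model was edgeR 4.0.16 in R 4.3.3 (TMM scaling, filterByExpr, robust glmQLFit and glmQLFTest) over all 9 libraries, by group alone, with 6 residual degrees of freedom. Benjamini-Hochberg adjustment covered 18644 genes, with a threshold of 0.05. DESeq2 1.42.0, relative log expression scaling, no filter, a replicate block, a limit of 10 CPM and leaving out each library were the alternatives. CPM values of genes are TMM-scaled (factors 0.982 to 1.02). Sums over markers, members or a complex and the mean behind the 1 CPM limit are unscaled. The script was tested on simulated data.

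Same-numbered treated and EAE libraries deviated together from their groups' means (correlations 0.20, 0.26 and 0.30) and so count as pairs by the data though no label ties them. Correlations of EAE and naive libraries were positive too (0.07, 0.14 and 0.43), while those of treated and naive were -0.26, -0.18 and 0.26. In neither comparison did every library correlate best with the library of its own number, and neither was counted as paired.

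Members and lists were chosen with earlier results of these data known. Named members were those with the smallest p of each complex and comparison, core subunits (1 is not reported here), isoform pairs, those of extreme level and those next to the CPM limit. Ndufa10, Cox6c, Ndufa12, members of small counts and the paragraph on treated replicate 2 were chosen after their values were seen. Lengths are medians of protein-coding transcripts in GENCODE M21, and coordinates are from RefSeq for GRCm38.p6. In that annotation, exons of 29 members overlap a gene on the opposite strand and those of 5 a gene on the same strand. Near-identical copies (at least 90% over 200 bases) exist for 32 members, 65 of the 68 copies being pseudogenes. Values of these members are uncertain to that extent.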

Additional observations from a re-analysis of the deposited data

How the results depend on the processing

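In all 14 alternatives of each comparison 0 members were called, and the smallest adjusted p of a member was 0.157 in EAE against naive, 0.142 in treated against EAE and 1.00 in treated against naive. None of 1404 values of the 36 named members under alternatives changed its call, and 118 changed sign without being called. The number of all genes called moved more. DESeq2 called 1042 genes in EAE against naive, 688 in treated against EAE and 3 in treated against naive, where edgeR called 184, 41 and 0. Leaving out 1 library gave 2 to 261, 4 to 38 and 0 genes, with 2 called in EAE against naive without naive replicate 1 and 7 without naive replicate 2. Without treated replicate 3 or naive replicate 2, 4 were called in treated against EAE. With the replicate block 238, 46 and 0 genes were called, and 0 members in each comparison. This block tied the naive libraries by number too, and the pairs of treated and EAE libraries alone were not fitted. The members' median log2 fold change ran from -0.042 to 0.0080, from -0.056 to 0.043 and from -0.070 to 0.021 when 1 library was left out. The -0.070 was reached without treated replicate 2. With a limit of 10 CPM the 78 members had medians of -0.02, 0.01 and 0.01. With 3 libraries a group the 95% intervals of Cox6b2, Cox4i2, Ndufa4l2 and Ndufa12 were the widest in each comparison. The causes of these shifts were not tested.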
